A study of Mus musculus with 11 samples.

Results

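Cytl1, Chil1, Msmp, Cnmd, Snorc, Ucma, Clec3a and Scrg1 encode small proteins that chondrocytes secrete or hold in their membrane. These 8 genes, of 55421 in the count files, were followed in articular cartilage of mouse knees. They were listed by name, and some were chosen by a large difference between the groups, so the differences of all 8 between groups are given here as a description, and no test of them is read as evidence. All 8 passed the filter on low counts, which 18125 genes passed. RNA was measured in 4 knees of mice labelled c-FosDCh after destabilisation of the medial meniscus (DMM), in 3 DMM knees of c-FosWT mice and in 4 contralateral knees of c-FosWT mice. DMM is an operation that loosens the meniscus and brings on osteoarthritis. All mice were C57BL/6, 14 weeks of age, and the knees were taken 4 weeks after surgery. c-FosDCh is read here as loss of the AP-1 transcription factor gene Fos in chondrocytes. The sources used here do not give the deleted stretch, the Cre driver or the time of deletion, and contralateral knees of c-FosDCh mice were not analysed here.

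Cartilage has few cells in a large matrix of collagen II, aggrecan and smaller proteins, and it holds no blood vessels. Chondrocytes add to this matrix a set of small proteins that act as signals, bind other matrix molecules or keep vessels and mineral out. Several of them are used as markers of the chondrocyte state because few other tissues make them.

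The libraries held 13593454 to 18280558 gene counts, with a median of 16387548. Each of the 11 libraries has a title with an animal number, and 3 c-FosWT animals gave both knees, so p-values measure the spread between animals and, for those 3, in part between knees. Levels are given as CPM, the counts of a gene scaled to a fixed library total. Fos itself had 10.9 to 33.0 CPM in the knees labelled c-FosDCh, 9.01 to 14.1 CPM in c-FosWT DMM knees and 15.7 to 24.8 CPM in contralateral knees. The label thus did not go with less Fos RNA, and a count over the whole gene in whole tissue does not check a deletion of unknown extent. The mean log2 CPM of 14 core cartilage genes, called the cartilage score here, was 8.54 ± 0.53, 7.95 ± 0.73 and 8.57 ± 0.38 in the same 3 groups. The score weighs each gene alike, and Matn3, 1 of the 14, ran from 0.073 to 138 CPM. The summed CPM of the 14 was 15500 to 34200, 5630 to 13900 and 14900 to 25000, with the c-FosWT DMM knees below all others. The score is thus not a measure of cartilage content alone. Erythroid and granulocyte genes, which mark bone marrow, had a mean log2 CPM of 6.18 ± 1.64, 8.33 ± 0.39 and 7.01 ± 0.76. Over the 9 comparisons of cartilage, marrow and muscle scores, the lowest exact permutation p was 0.0571, for the marrow score of the knees labelled c-FosDCh against c-FosWT DMM knees (two-sided, 0.514 after Benjamini-Hochberg adjustment over 9 tests), which is the smallest that 4 against 3 samples can give. Muscle genes stood high in c-FosWT DMM replicate 1 and contralateral replicate 2, with scores of 9.16 and 8.45 against at most 6.3 in the other libraries. The 10 osteoblast and osteocyte markers summed to means of 29600, 34500 and 29600 CPM in the 3 groups, in the order used above. The 14 core cartilage genes summed to means of 24700, 10500 and 18800 CPM. Most of the osteoblast and osteocyte sums was Col1a1, at means of 25900, 32700 and 26300 CPM. All levels below are those of whole dissected pieces, in which fewer cells of a type and less RNA per cell cannot be told apart.

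The starts of 5 of the 8 genes were matched in the RefSeq table of the mouse build GRCm38.p6. Their promoters are shown because most of these genes moved together between the groups and Cnmd did not. Each line runs 5′ to 3′ on the gene's own strand, from 250 bases before the start to 50 bases after it. Capitals mark a match to the AP-1 motif, the sequence that Fos and Jun proteins bind.

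Cytl1: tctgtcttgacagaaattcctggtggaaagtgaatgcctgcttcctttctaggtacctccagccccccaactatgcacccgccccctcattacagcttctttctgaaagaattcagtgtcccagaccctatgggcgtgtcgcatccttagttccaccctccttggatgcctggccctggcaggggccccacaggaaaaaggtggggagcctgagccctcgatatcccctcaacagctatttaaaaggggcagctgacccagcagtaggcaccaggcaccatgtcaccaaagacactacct
Chil1: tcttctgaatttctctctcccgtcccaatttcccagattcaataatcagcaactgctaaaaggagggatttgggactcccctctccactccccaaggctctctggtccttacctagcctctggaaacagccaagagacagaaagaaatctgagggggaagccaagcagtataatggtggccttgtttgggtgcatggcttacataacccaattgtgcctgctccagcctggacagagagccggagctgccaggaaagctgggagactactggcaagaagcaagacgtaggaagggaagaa
Msmp: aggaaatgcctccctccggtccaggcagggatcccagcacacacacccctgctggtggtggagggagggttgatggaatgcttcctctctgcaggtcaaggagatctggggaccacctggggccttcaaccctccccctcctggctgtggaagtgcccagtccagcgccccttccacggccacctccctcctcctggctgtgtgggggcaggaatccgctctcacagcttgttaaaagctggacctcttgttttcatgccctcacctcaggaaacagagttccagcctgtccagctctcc
Ucma: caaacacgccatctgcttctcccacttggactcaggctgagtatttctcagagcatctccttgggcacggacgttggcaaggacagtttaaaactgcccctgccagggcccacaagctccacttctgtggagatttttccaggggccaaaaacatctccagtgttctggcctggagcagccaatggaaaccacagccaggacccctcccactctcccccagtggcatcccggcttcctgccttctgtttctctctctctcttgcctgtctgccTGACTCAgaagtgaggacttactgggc
Cnmd: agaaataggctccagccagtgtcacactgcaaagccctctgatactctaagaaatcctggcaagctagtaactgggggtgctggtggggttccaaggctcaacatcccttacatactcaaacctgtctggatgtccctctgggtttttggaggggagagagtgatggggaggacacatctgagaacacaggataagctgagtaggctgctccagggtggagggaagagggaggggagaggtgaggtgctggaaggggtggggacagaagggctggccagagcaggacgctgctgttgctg

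The windows lie at chr5:37735269-37735568 (plus strand) for Cytl1, chr1:134181906-134182205 (plus strand) for Chil1, chr4:43584445-43584744 (minus strand) for Msmp, chr2:4975872-4976171 (plus strand) for Ucma and chr14:79662134-79662433 (minus strand) for Cnmd. The search covered both strands for the AP-1 motif TGANTCA, the cyclic AMP response element TGACGTCA and the SOX motifs AACAATG and ACAAAG. Of the 5 promoters, that of Ucma alone held a match, TGACTCA on the gene's own strand beginning at base 24 counted from the start. Over 32851 mouse promoter windows of the same length, AP-1 matches were in 7.81%, cyclic AMP response elements in 1.79%, AACAATG in 3.78% and ACAAAG in 18.7%. A match is a stretch of letters, not a shown binding site. Snorc, Clec3a and Scrg1 were not matched in that table.

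Cytl1 encodes a small secreted cytokine-like protein of chondrocytes. Its gene lies on chromosome 5 at 37735519 to 37739820 on the plus strand. Cytl1 had 2710, 1620, 7250 and 10100 CPM in the 4 knees labelled c-FosDCh, 803, 159 and 690 CPM in c-FosWT DMM knees, and 3020, 3060, 5240 and 1450 CPM in contralateral knees. All 3 c-FosWT DMM knees lay below every knee of both other groups, while the ranges of the knees labelled c-FosDCh and the contralateral knees overlapped. The log2 fold change was 3.30 ± 0.81 (SE) for the knees labelled c-FosDCh against c-FosWT DMM knees, 0.77 ± 0.66 for them against contralateral knees, and -2.54 ± 0.78 for c-FosWT DMM against contralateral knees. Taken per kilobase of exon, Cytl1 ranked 5 among the 18125 genes by its mean level in the knees labelled c-FosDCh, 36 in c-FosWT DMM knees and 7 in contralateral knees. Cytl1 alone held 0.156 to 0.828% of all gene counts in the libraries labelled c-FosDCh, 0.0178 to 0.0836% in c-FosWT DMM libraries and 0.153 to 0.536% in contralateral libraries.

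Clec3a, a secreted C-type lectin of cartilage related to tetranectin, followed the same order. It lies on chromosome 8 at 114418086 to 114425846 on the plus strand. Clec3a had 1370, 1030, 2790 and 3570 CPM in the knees labelled c-FosDCh, 394, 112 and 387 CPM in c-FosWT DMM knees, and 1240, 1170, 1770 and 537 CPM in contralateral knees. The c-FosWT DMM knees again lay wholly below the others, and replicates 3 and 4 labelled c-FosDCh were the highest of the 11 libraries. The log2 fold changes were 2.88 ± 0.62 for the knees labelled c-FosDCh against c-FosWT DMM knees, 0.89 ± 0.52 for them against contralateral knees and -1.99 ± 0.60 for c-FosWT DMM against contralateral knees (SE). Per kilobase of exon Clec3a ranked 11, 39 and 13 in the knees labelled c-FosDCh, the c-FosWT DMM knees and the contralateral knees. Cytl1 and Clec3a together made up 66.8 to 91.8% of the counts of the 8 genes in each library. The 8 genes held 0.496, 0.318, 1.09 and 1.25% of all gene counts in the libraries labelled c-FosDCh, 0.162, 0.0454 and 0.133% in c-FosWT DMM libraries, and 0.521, 0.475, 0.832 and 0.256% in contralateral libraries. By that share too the c-FosWT DMM libraries lay below all others.

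**Figure D1:**
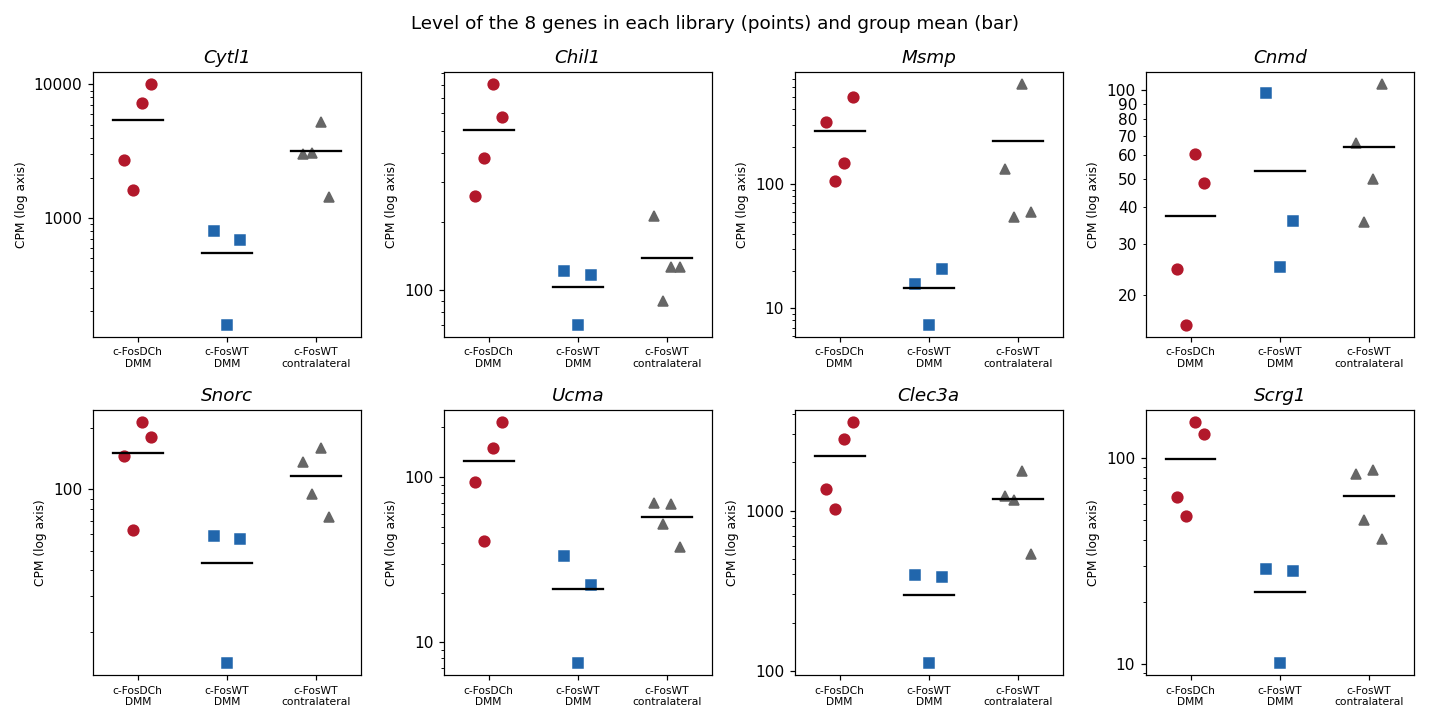
CPM of the 8 genes on log axes, 1 panel per gene, with 1 point per library and a bar at the mean of the 4 knees labelled c-FosDCh, 3 c-FosWT DMM knees and 4 contralateral knees. In 6 panels the c-FosWT DMM points lie below all others, Chil1 is highest in the knees labelled c-FosDCh, and for Cnmd the 3 groups overlap.

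Msmp belongs to the microseminoprotein family of small cysteine-rich secreted proteins, and its human protein attracts cells through the chemokine receptor CCR2. Msmp had 316, 106, 149 and 504 CPM in the knees labelled c-FosDCh, 15.6, 7.39 and 20.7 CPM in c-FosWT DMM knees, and 133, 54.8, 639 and 59.5 CPM in contralateral knees. The c-FosWT DMM knees lay wholly below both other groups, and contralateral replicate 3 was the highest of all 11 libraries. Of the 8 genes Msmp had the largest log2 fold changes, 4.20 ± 1.04 for the knees labelled c-FosDCh against c-FosWT DMM knees and -3.92 ± 1.02 for c-FosWT DMM against contralateral knees (SE). Without contralateral replicate 3 the second value was -2.50, and the value for the knees labelled c-FosDCh against contralateral knees was 1.70 in place of 0.28 ± 0.80 (SE). The contralateral SD of Msmp, 280 CPM around a mean of 221, rests on that library.

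The Msmp gene lies on chromosome 4 at 43583216 to 43584494 on the minus strand, inside Rgp1, which runs from 43578715 to 43587487 on the plus strand and encodes a protein of membrane traffic. All 743 exon bases of Msmp are covered by Rgp1 exons in the GENCODE M21 annotation. The library kit was directional, but the sources used here do not give the strand setting of the deposited counts. Rgp1 had 76.5 to 87.6 CPM in the knees labelled c-FosDCh, 75.9 to 94.3 CPM in c-FosWT DMM knees and 59.9 to 76.3 CPM in contralateral knees, a 1.58-fold range over 11 libraries, while Msmp spanned an 86.5-fold range. Msmp counts ran from 129 to 10705 per library. The other 7 genes overlap no exon of another annotated gene.

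**Figure D2:**
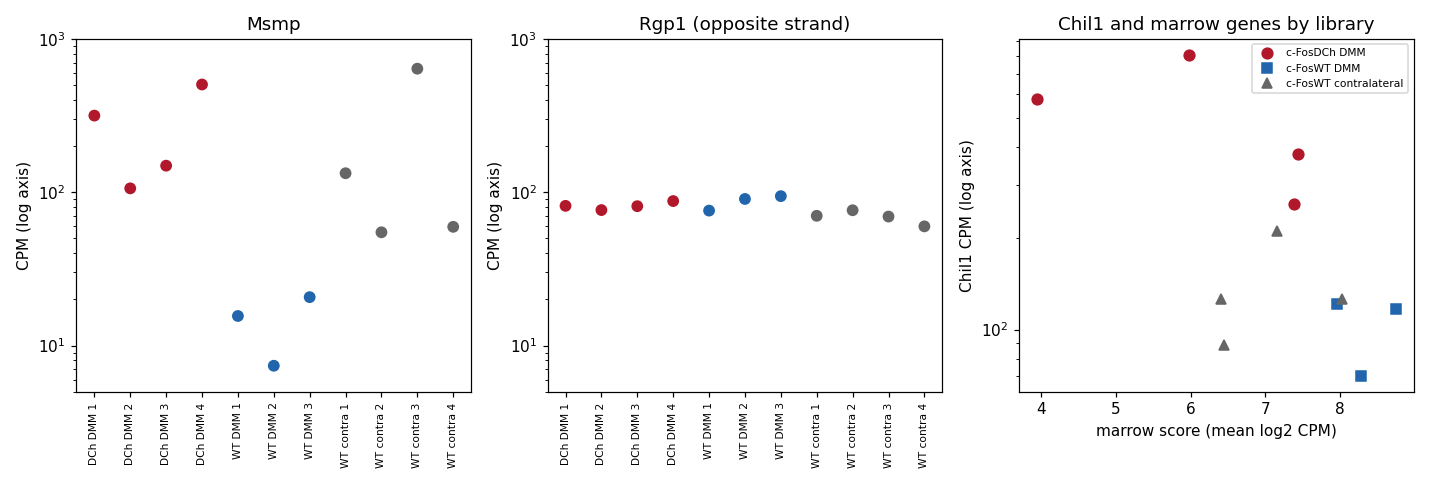
CPM of Msmp and of Rgp1, the gene on the opposite strand, in each of 11 libraries on log axes, and CPM of Chil1 against the marrow score (the mean over erythroid and granulocyte genes, in log2 CPM). Msmp spans 7.39 to 639 CPM and Rgp1 59.9 to 94.3 CPM, and the 4 Chil1 points labelled c-FosDCh lie above all others at marrow scores of 3.94 to 7.43.

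Chil1 encodes a chitinase-like glycoprotein without enzyme activity, known in human joint disease as YKL-40, and both chondrocytes and myeloid cells are known to make it. It lies on chromosome 1 at 134182176 to 134190181 on the plus strand. Chil1 had 260, 380, 807 and 577 CPM in the knees labelled c-FosDCh, 121, 70.4 and 117 CPM in c-FosWT DMM knees, and 212, 89.1, 126 and 126 CPM in contralateral knees. Each knee labelled c-FosDCh lay above every c-FosWT knee of either kind, and the 2 c-FosWT groups overlapped. The log2 fold changes were 2.30 ± 0.43 against c-FosWT DMM knees, 1.87 ± 0.38 against contralateral knees, and -0.43 ± 0.40 for c-FosWT DMM against contralateral knees (SE). It was the only one of the 8 whose knees labelled c-FosDCh did not overlap the contralateral knees, which held for 2.28% of all genes tested on the higher side. The 10 macrophage markers summed to 133 to 576 CPM in the knees labelled c-FosDCh, 676 to 833 CPM in c-FosWT DMM knees and 550 to 698 CPM in contralateral knees, and the 15 granulocyte markers to 336 to 11500, 7930 to 14800 and 3380 to 10600 CPM. None of these markers was at 0 in any library. Both sums averaged lower in the knees labelled c-FosDCh, and the granulocyte sums overlapped between the groups. Which cells made the Chil1 RNA was not tested.

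Among the relatives of Chil1, Chil3, a macrophage and neutrophil product, averaged 295 ± 262 CPM in the knees labelled c-FosDCh, 548 ± 147 CPM in c-FosWT DMM knees and 329 ± 189 CPM in contralateral knees (SD). Chid1, a chitinase-domain protein of lysosomes, rose in the knees labelled c-FosDCh against c-FosWT DMM knees by a log2 fold change of 0.42 ± 0.12 (edgeR adjusted p = 0.0431). Chil4, Chil6 and Chia1 did not pass the filter on low counts.

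Ucma, also called Gla-rich protein, is a secreted protein that needs vitamin K for its carboxylation and is made by young chondrocytes. It lies on chromosome 2 at 4976122 to 4985748 on the plus strand, and its promoter is the one with the AP-1 letters printed above. Ucma had 92.9, 41, 149 and 215 CPM in the knees labelled c-FosDCh, 33.3, 7.5 and 22.3 CPM in c-FosWT DMM knees, and 69.7, 52.3, 68.4 and 37.7 CPM in contralateral knees. The lowest knee labelled c-FosDCh lay just above the highest c-FosWT DMM knee, and within the contralateral range. Its log2 fold changes were 2.57 ± 0.61 for the knees labelled c-FosDCh against c-FosWT DMM knees, 1.13 ± 0.52 against contralateral knees, and -1.44 ± 0.58 for c-FosWT DMM against contralateral knees (SE).

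Of 8 tested vitamin K-dependent proteins and enzymes, 3 rose in the knees labelled c-FosDCh against c-FosWT DMM knees and none fell, beside 10.6% of all genes tested called higher and 3.79% called lower. These were Mgp, the matrix Gla protein that inhibits mineral (log2 fold change 1.75 ± 0.43, edgeR adjusted p = 0.036), the carboxylase Ggcx (1.18 ± 0.23, adjusted p = 0.0332) and the vitamin K reductase Vkorc1 (1.11 ± 0.32, adjusted p = 0.0454). Osteocalcin, which bone makes, had a log2 fold change of -0.91 ± 0.47 for Bglap and -0.77 ± 0.48 for Bglap2, and neither passed. Vkorc1l1 had a log2 fold change of -0.40 ± 0.12 (edgeR adjusted p = 0.0507). It averaged 36.5, 48.3 and 38.2 CPM in the knees labelled c-FosDCh, c-FosWT DMM knees and contralateral knees. Vkorc1 averaged 6.75, 3.13 and 5.74 CPM in the same groups. Of the 8 tested in this list 4 had positive values and 4 negative ones. The list's median was 0.10, beside -0.01 over all genes tested.

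Snorc is a small transmembrane proteoglycan of chondrocytes, encoded on chromosome 1 at 87470271 to 87475482 on the plus strand. It had 146, 63.4, 214 and 180 CPM in the knees labelled c-FosDCh, 58.7, 14 and 57 CPM in c-FosWT DMM knees, and 137, 95.1, 159 and 73.2 CPM in contralateral knees. Replicate 2 labelled c-FosDCh lay close to the highest c-FosWT DMM knee. The log2 fold change was 1.80 ± 0.54 for the knees labelled c-FosDCh against c-FosWT DMM knees, 0.38 ± 0.48 for them against contralateral knees and -1.42 ± 0.54 for c-FosWT DMM against contralateral knees (SE).

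Scrg1, a small cysteine-rich secreted protein first described in scrapie brain and also made by cartilage, had 64.7, 52, 149 and 131 CPM in the knees labelled c-FosDCh, 28.8, 10.1 and 28.3 CPM in c-FosWT DMM knees, and 83.9, 50, 86.9 and 40.4 CPM in contralateral knees. It lies on chromosome 8 at 57455923 to 57477585 on the plus strand. No c-FosWT DMM knee reached the lowest knee of the other groups. Its log2 fold changes were 2.15 ± 0.50 for the knees labelled c-FosDCh against c-FosWT DMM knees, 0.60 ± 0.43 for them against contralateral knees and -1.54 ± 0.49 for c-FosWT DMM against contralateral knees (SE).

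Cnmd, chondromodulin, is a transmembrane precursor from which a part that blocks vessel growth is released, and between groups it did not follow the others. It lies on chromosome 14 at 79637690 to 79662170 on the minus strand. Cnmd had 24.6, 15.9, 60.7 and 48.3 CPM in the knees labelled c-FosDCh, 97.7, 25.1 and 35.8 CPM in c-FosWT DMM knees, and 66.2, 35.7, 49.7 and 105 CPM in contralateral knees. The 3 groups overlapped, and the order of their means, contralateral above c-FosWT DMM above those labelled c-FosDCh, is not separated by their spread. The log2 fold changes were -0.50 ± 0.57 for the knees labelled c-FosDCh against c-FosWT DMM knees, -0.78 ± 0.53 against contralateral knees, and -0.28 ± 0.57 for c-FosWT DMM against contralateral knees (SE). The first of these was 0.26 without c-FosWT DMM replicate 1. Per kilobase of exon Cnmd ranked 1730 in the knees labelled c-FosDCh, 1085 in c-FosWT DMM knees and 795 in contralateral knees. On the same scale Msmp ranked 52, 1840 and 62, and Chil1 109, 788 and 499. Cnmd was thus the lowest of the 8 per kilobase in the knees labelled c-FosDCh, while Msmp was the lowest in c-FosWT DMM knees.

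**Figure D3:**
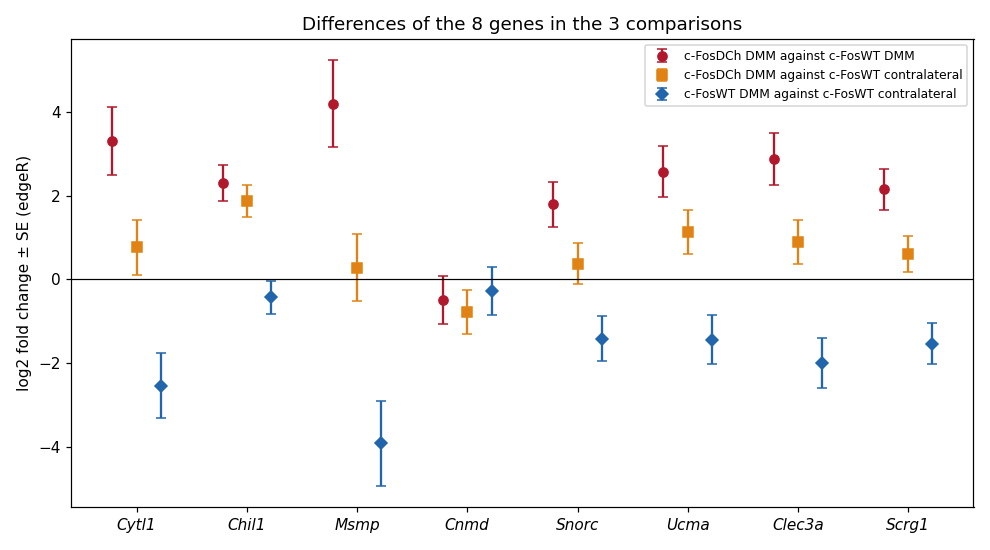
Log2 fold changes with SE from edgeR for the 8 genes in 3 comparisons. For the knees labelled c-FosDCh against c-FosWT DMM knees 7 values lie above 0, up to 4.20 for Msmp, with Cnmd at -0.50, and all 8 lie below 0 for c-FosWT DMM against contralateral knees.

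Counted together, 7 of the 8 genes had every knee labelled c-FosDCh above every c-FosWT DMM knee, and 6 were past an edgeR adjusted p of 0.05, all higher (Cytl1, Chil1, Msmp, Ucma, Clec3a and Scrg1). Over all genes tested, 14.4% were past that threshold, 10.6% higher and 3.79% lower, and 17.2% had every knee labelled c-FosDCh above every c-FosWT DMM knee. The median log2 fold change of the 8 was 2.43, beside -0.01 over all genes. Since the genes were partly selected on such differences, these counts only describe them. Scaling by library totals alone moved the median of all genes by -0.18 and the share of calls that were higher to 54.5%, against 73.7% with the main scaling, and left the same 6 of the 8 called. Without c-FosDCh DMM replicate 3 or 4, c-FosWT DMM replicate 2 or 3, or contralateral replicate 1 or 2, 0 of the 8 passed the threshold, with 0 genes called in all, or 1 without contralateral replicate 2.

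For c-FosWT DMM against contralateral knees 6 of the 8 genes, all but Chil1 and Cnmd, had every DMM knee below every contralateral knee, beside 13.1% of all genes. No gene of 18125 passed an adjusted p of 0.05 there in edgeR (background 0%), with 3605 at an unadjusted p under 0.05, while DESeq2 called 825 genes, among them Cytl1, Msmp, Clec3a and Scrg1. In the 3 animals with both knees, 7 of the 8 genes were lower in the DMM knee each time. The share of all genes that did so was not computed, so this count only describes the 8. The log2 differences of the DMM knee from the contralateral knee of the same animal were -1.91, -4.27 and -1.07 for Cytl1, and -3.08, -2.87 and -1.52 for Msmp. The second animal had the largest difference for Cytl1, Clec3a, Ucma, Snorc and Scrg1. Its DMM knee, replicate 2, had the lowest cartilage score of the 11 libraries, 7.18. Its contralateral knee, replicate 2, was 1 of the 2 muscle-rich libraries and had the highest share of unmapped reads, 26.33%. For Cnmd the 3 differences were 0.56, -0.51 and -1.55, and they did not share a sign.

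For the knees labelled c-FosDCh against contralateral knees, which differ in genotype label and in surgery at once, no gene passed in edgeR (background 0%), with 1512 at an unadjusted p under 0.05, and DESeq2 called 37, including Chil1. The median of the 8 was 0.68, beside 0.00 over all genes. The 3 comparisons share groups of knees, so their values for a gene are not independent of one another.

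Set against the cartilage score of the same library, Chil1 stood at 0.32 ± 0.23 log2 units in the knees labelled c-FosDCh, -1.31 ± 0.36 in c-FosWT DMM knees and -1.53 ± 0.27 in contralateral knees (SD). The 4 knees labelled c-FosDCh thus lay above all c-FosWT knees, and the 2 c-FosWT groups overlapped. Relative to the same score Cnmd stood at -3.50 ± 0.49, -2.47 ± 0.43 and -2.68 ± 0.39, and each knee labelled c-FosDCh lay below every c-FosWT knee. Cytl1 stood at 3.51 ± 0.81, 0.85 ± 0.65 and 2.93 ± 0.97, and Msmp at -0.73 ± 1.08, -4.19 ± 0.51 and -1.56 ± 1.65. For Cytl1 and Msmp the c-FosWT DMM knees lay below both other groups on this scale as well. For Snorc, Ucma, Clec3a and Scrg1 the c-FosWT DMM and contralateral knees overlapped once set against the score, although their CPM did not. Snorc also overlapped between the knees labelled c-FosDCh and c-FosWT DMM knees on this scale. How large a share of all genes separates the groups on this scale was not computed. The separations and overlaps given here, that of Cnmd included, thus only describe the genes named.

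**Figure D4:**
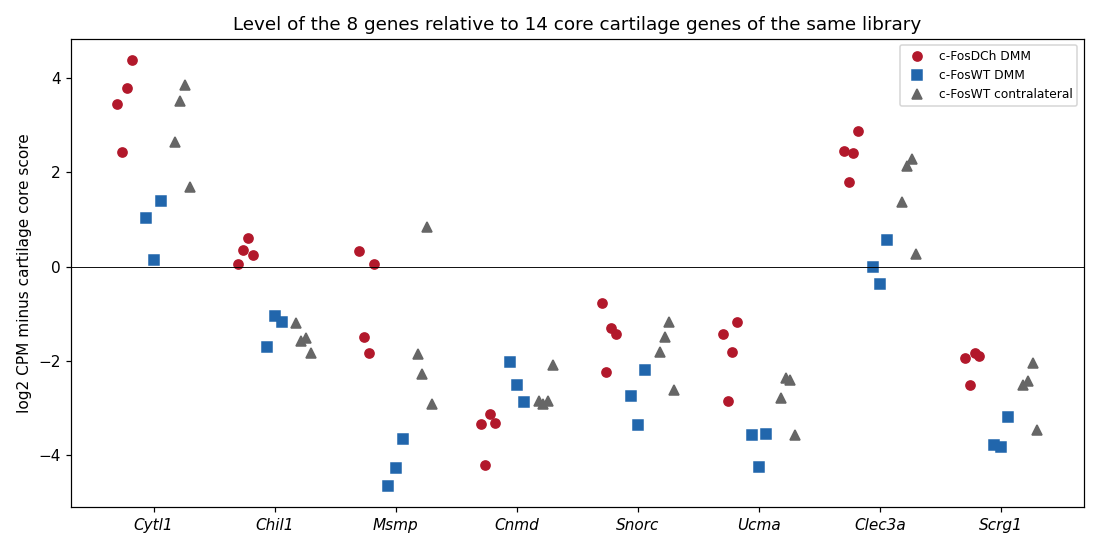
Log2 CPM of the 8 genes minus the mean log2 CPM of 14 core cartilage genes of the same library, with 1 point per library and the 3 groups side by side. Chil1 points labelled c-FosDCh lie at 0.06 to 0.61, above all others at -1.83 to -1.04, and Cnmd points labelled c-FosDCh lie below all others. How large a share of all genes separates in this way was not computed.

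Across the 11 libraries, the 21 pairs among the 7 genes other than Cnmd had Pearson correlations of log2 CPM between 0.61 and 0.99, with a median of 0.90. The 7 pairs with Cnmd ranged from -0.05 to 0.28, with a median of 0.20. These values include the group differences and 3 animals with both knees. Once group means were removed the ranges were 0.18 to 0.99 and 0.14 to 0.68, with medians of 0.79 and 0.58. Cnmd thus varied more like the other 7 within groups than over all libraries. With the marrow score, the same 7 genes had correlations from -0.83 (Cytl1 and Clec3a) to -0.64 (Chil1), and Cnmd had -0.08. Without group means these ran from -0.71 (Cytl1) to -0.35 (Chil1), and Cnmd had -0.3. How far the marrow part of the pieces shapes the likeness between genes was not tested. The share of all gene pairs with correlations this high is not given here. Cytl1 was most like Lgr6, a receptor for R-spondins, at r = 0.998, and at 0.994 without group means, followed by Nxph4 and Stk32b. Clec3a was most like Ndufa4l2 (r = 0.995), Meltf and Hhipl2. Snorc had Crispld1, Lefty1 and Cox4i2 as its nearest genes, Ucma had Fxyd3, Clu and Cilp, and Scrg1 had Snph, Prkcz and Ncmap. The nearest genes of Chil1 were Caml, Ino80c and Cdhr4, and Alkbh3 and Tmem107 were among those of Msmp. The nearest genes of Cnmd were Nol4l, Kif26b and Rab9, with Nol4l at r = 0.859, and without group means its nearest gene was Fam151b, at 0.954.

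Other secreted proteins of cartilage were read from a list of 20 genes, of which 19 were tested. In the knees labelled c-FosDCh against c-FosWT DMM knees 10 rose and none fell, beside 10.6% and 3.79% of all genes, and the median log2 fold change was 1.88 against -0.01. Prg4, the lubricin of the joint surface, had 18500 ± 15500 CPM in the knees labelled c-FosDCh, 2000 ± 937 CPM in c-FosWT DMM knees and 7790 ± 3260 CPM in contralateral knees, and its log2 fold change between the DMM knees was 3.21 ± 0.76 (edgeR adjusted p = 0.0336). Cilp, a protein of the intermediate layer, rose by 3.22 ± 0.78 (adjusted p = 0.0344) and Ecrg4, which encodes a secreted peptide precursor, by 3.00 ± 0.64 (adjusted p = 0.0332), in edgeR and on the log2 scale. Fibin, a secreted protein, rose by 2.40 ± 0.47 and Pcolce2, an enhancer of procollagen processing, by 1.91 ± 0.37, both with an adjusted p of 0.0332. Of the 14 core cartilage genes 5 rose and none fell, among them Acan by 2.43 ± 0.53 and Sox9 by 2.44 ± 0.48 (edgeR adjusted p = 0.0332 for both). These calls, like those of the 8 genes, are from a comparison with 0 calls once any of 5 single libraries is left out.

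Like Cnmd, a few listed cartilage genes had negative values in the same comparison without passing the test, and they are named after their values were seen. Matn3, a matrilin, averaged 1.34 ± 1.84 CPM in the knees labelled c-FosDCh, 46.4 ± 42.1 CPM in c-FosWT DMM knees and 39.3 ± 66.0 CPM in contralateral knees, with a log2 fold change of -5.04 ± 1.67 between the DMM knees (edgeR adjusted p = 0.0628). Col9a1, a chain of collagen IX, averaged 35.4 ± 16.7, 91.5 ± 69.6 and 81.8 ± 86.2 CPM in the same groups. Matn1, Epyc and Crtac1 had log2 fold changes of -2.97 ± 1.13, -1.88 ± 0.93 and -1.10 ± 0.44 and mean levels under 3 CPM in each group.

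Of 13 tested relatives of the 8 genes 2 rose in the knees labelled c-FosDCh against c-FosWT DMM knees, a share near the 10.6% of all genes called higher, and the list's median was 0.08. They were Chid1, given above, and Itm2c, a membrane protein with the BRICHOS domain that Cnmd also has (1.10 ± 0.27, edgeR adjusted p = 0.0345). Tnmd, the closest relative of Cnmd and a tendon gene, averaged 0.768 ± 0.983 CPM, 2.46 ± 1.07 CPM and 2.44 ± 3.85 CPM in the knees labelled c-FosDCh, c-FosWT DMM knees and contralateral knees. Clec3b, tetranectin, had a log2 fold change of 0.08 ± 0.53. Of 10 reported receptors and binding partners 2 rose, beside the same 10.6% of all genes and with a list median of -0.18. They were the galectin Lgals3 (0.90 ± 0.19, edgeR adjusted p = 0.0332) and the syndecan Sdc1 (0.50 ± 0.13, adjusted p = 0.0378). Of the 10, 5 had positive values and 5 negative ones. Among the latter were Ager (-0.88 ± 0.28, edgeR adjusted p = 0.0558) and Il13ra2 (-1.79 ± 0.72, adjusted p = 0.0987), which did not pass. Ccr2, the reported receptor of Msmp, averaged 52.7 ± 37.2 CPM in the knees labelled c-FosDCh, 107 ± 21.9 CPM in c-FosWT DMM knees and 89.2 ± 31.3 CPM in contralateral knees, and it did not pass. No gene of these lists passed in the other 2 comparisons.

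**Figure D5:**
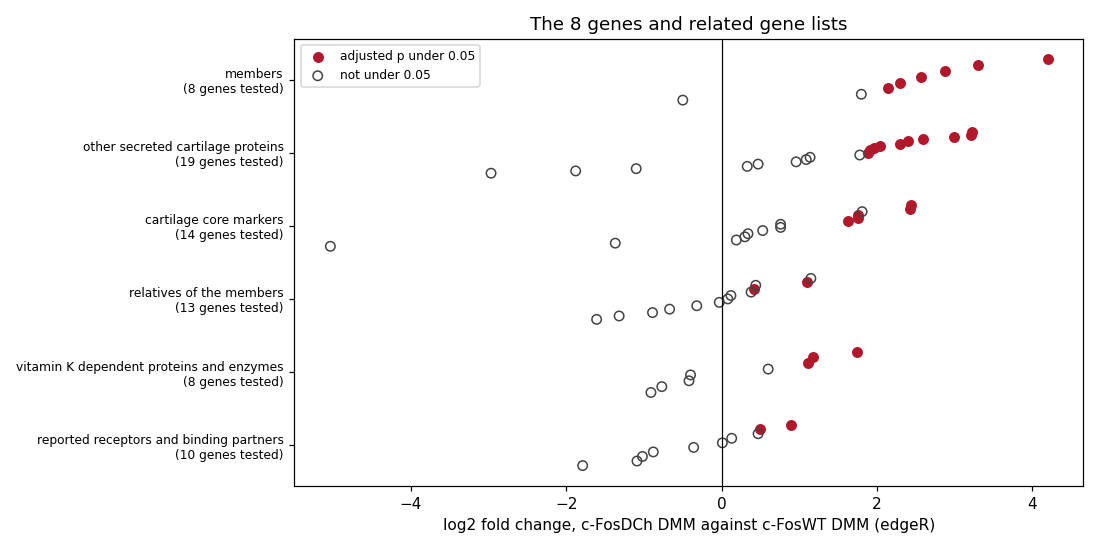
Log2 fold change of each tested gene, knees labelled c-FosDCh against c-FosWT DMM knees, for the 8 genes and 5 related lists, filled where the edgeR adjusted p was under 0.05. Of the 8 genes 6 are filled, of the other secreted cartilage proteins 10 of 19, and all filled points lie above 0.

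Of the other marker lists, 8 of 15 erythroid genes fell in the knees labelled c-FosDCh against c-FosWT DMM knees, beside 3.79% of all genes, with a list median of -2.13. All 15 granulocyte, 10 macrophage, 16 muscle, 6 endothelial, 6 B cell and 5 adipocyte markers had negative values there and none passed. Of 6 tendon and ligament markers 5 had positive values in that comparison and 1, Tnmd, a negative one of -1.61 ± 1.24. Beside 10.6% of all genes called higher, 2 of the 6 rose. They were Mkx, a tendon transcription factor (1.23 ± 0.26, edgeR adjusted p = 0.0332), and Fmod, a collagen-binding proteoglycan (1.33 ± 0.33, adjusted p = 0.0352). The list's median was 0.93. The 6 summed to 1570 to 2320 CPM in the knees labelled c-FosDCh, 443 to 1080 CPM in c-FosWT DMM knees and 933 to 1730 CPM in contralateral knees, and Tnmd was at 0 in at least 1 library. Most of these sums was Fmod, which averaged 1360, 539 and 835 CPM in the same groups. Of 10 osteoblast and osteocyte markers 1 rose, the phosphatase Alpl (1.24 ± 0.36, adjusted p = 0.0471), a share near the 10.6% of all genes. Of 8 synovial fibroblast markers none passed, and the medians of these 2 lists were -0.06 and 0.08. With the marrow score as a covariate no gene passed in that comparison, and the log2 fold changes were 1.51 for Cytl1, 1.61 for Clec3a, 1.37 for Ucma, 1.30 for Scrg1, 1.17 for Snorc, 1.89 for Chil1, 3.01 for Msmp and -0.96 for Cnmd. Against the values without the covariate, those of Cytl1, Clec3a, Ucma, Scrg1 and Msmp were lower by the widest margins. With the cartilage score as a covariate, a fit added after seeing the data, the values were 2.505 for Cytl1, 2.32 for Clec3a, 1.98 for Ucma, 1.54 for Scrg1, 1.38 for Snorc, 1.64 for Chil1, 3.97 for Msmp and -1.25 for Cnmd, and no gene passed. The part of bone, marrow, muscle or tendon tissue in the levels of the 8 genes was not tested beyond these fits.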

How the data were processed

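RNA was measured in articular cartilage of 11 mouse knees. Per the labels' protocols, RNA of scalpel-dissected cartilage was extracted in TRI Reagent, and directional libraries of poly(A) RNA were read from one end on a NextSeq500. The build GRCm38 and STAR 2.6.1a are named in the submitters' processing notes. Each library has 1 deposited file of raw gene counts, unnormalised by the authors, with 4 read classes that name no gene. These were left out of library sizes, and gene counts were 33.08 to 43.16% of the reads. The sources used here do not give the annotation release or the strand setting. Gene IDs were matched to symbols of GENCODE M21 on GRCm38 (55240 of 55421 genes).

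Groups came from the labels. Counts were fitted with edgeR 4.0.16 (R 4.3.3) in 1 quasi-likelihood model of all 11 libraries with TMM scaling and a filter on low counts, and p-values were adjusted by Benjamini-Hochberg over 18125 genes, with a threshold of 0.05. CPM uses TMM-scaled totals, and log2 CPM a prior count of 2. The model was run on simulated data with 1 spread for all genes and independent knees. That run cannot show how the model performs for the 8 genes, whose spread differs. The spread between libraries of a group, as the common biological coefficient of variation, was 0.315, and 0.371 (Chil1) to 0.749 (Msmp) for the 8 genes. Marker scores were compared by exact permutation over samples.

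The titles give 3 c-FosWT DMM and contralateral libraries the same animal, which pairs them. The deviations of these pairs from their group means correlated at -0.167, -0.177 and 0.254.

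The 8 genes, the lists and the alternatives were chosen with earlier results of these data known. Genes named beside the 8 are, by rule, the up to 3 with the smallest p and those at a high level in each list, and the 3 nearest genes of each of the 8, of which 1 is not reported here. Ahsp was not matched, and proteins are not shown. Alternatives were RLE scaling, library totals alone, no filter, DESeq2 1.42.0, limma-voom (limma 3.58.1), the compared groups alone, each library left out, a block by animal, and marrow or muscle scores as covariates. The cartilage score as a covariate and leaving out the 2 muscle-rich libraries were added after seeing the data.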

Additional observations from a re-analysis of the deposited data

Results flagged for a closer look

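Msmp in contralateral replicate 3 stood at 639 CPM, far from 133, 54.8 and 59.5 CPM in the other contralateral knees. Its gap to the nearest of them was 0.866 of the group's range. Rgp1, on the opposite strand, had 69.4 CPM in that library, within the 59.9 to 76.3 CPM of the contralateral knees. Of 22 groups of 4 knees examined for the 8 genes and 3 marker scores, it was the only one to stand out, and chance sets 1 in 20 such groups apart. The cause was not tested.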

How the results depend on the processing

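The counts of calls depended on the settings. For the knees labelled c-FosDCh against c-FosWT DMM knees, 2616 genes and 6 of the 8 were called in the main analysis, 1443 and 2 without the filter on low counts, and 5259 genes by DESeq2. They were 0 and 0 with only the 2 groups compared, with the marrow, muscle or cartilage score as a covariate, and without the 2 muscle-rich libraries (the cartilage score and the muscle-rich setting were added after seeing the data). Leaving out 1 library gave 0 to 4626 genes and 0 to 7 of the 8. For c-FosWT DMM against contralateral knees, DESeq2 called 825 genes and 4 of the 8 in place of 0, and for the knees labelled c-FosDCh against contralateral knees 37 genes and 1 of the 8. Against contralateral knees, leaving out 1 library gave 0 to 1 genes. With the replicate block by animal over 3 pairs, 0 genes and 0 of the 8 were called, and the log2 fold change was -2.35 for Cytl1 and -2.49 for Msmp, so the paired fit changed no call.

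Signs turned for Msmp, Cnmd and Chil1, none of them in a called value. Msmp in the knees labelled c-FosDCh against contralateral knees ran from -0.19 to 1.70 with single libraries left out, and was -0.051 with the marrow score and -0.044 without the muscle-rich libraries. Cnmd against c-FosWT DMM knees was 0.261 without the muscle-rich libraries. For c-FosWT DMM against contralateral knees Cnmd was 0.448 and Chil1 0.207 with the cartilage score. Leaving out single libraries gave Cnmd values of -0.848 to 0.260 for the knees labelled c-FosDCh against c-FosWT DMM knees and of -1.05 to 0.071 for c-FosWT DMM against contralateral knees. The cause was not tested. With 3 or 4 knees per group, these values rest on few libraries. Animal, dissection and depth were not tested as sources of the spread between libraries.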
